A study of Homo sapiens with 9 samples.

Results

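FOXO1 and 8 genes that act around it were followed in HepG2 cells, a human hepatoma line, treated with thyroid hormone receptor ligands. The 9 genes are the transcription factors FOXO1 and FOXO4, the insulin receptor INSR, its docking proteins IRS1 and IRS2, the coregulators CITED2 and PPARGC1A, the autophagy protein GABARAPL1 and the kinase PDK4. All probe sets whose array annotation gives 1 of these symbols and no other were taken, which gave 14 probe sets of 9 genes out of 22215 probe sets, of which those with a single symbol stand for 11963 genes. A further probe set annotated to both GABARAPL1 and GABARAPL3 was left out by that rule. The genes were chosen with earlier results of these ligands against vehicle in view, so their differences from vehicle are given as a description, without p-values, and support nothing by themselves. Whether a member passed the threshold of the whole-array fit, and whether it still did with samples left out, describes that fit and is no test of the member.

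Cells received 10 nM of GC-1, 10 nM of triiodothyronine (T3) or vehicle for 24 h in medium made with serum depleted of thyroid hormone, with 3 samples in each of the 3 groups. T3 is the active thyroid hormone, and GC-1 (sobetirome) is a synthetic analog that prefers the beta receptor. It carries methyl and isopropyl groups in place of the iodines of T3, a methylene bridge between its rings and an oxyacetic acid side chain. Each value is the deposited log2 signal of a probe set on an Affymetrix expression array. HepG2 is a single tumour-derived line, and the labels name no step that added or withdrew insulin, so that repression by insulin itself was not measured. Whether the 3 samples of a group were separate cultures is not stated, so p-values cover only sample-to-sample spread, possibly technical.

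Insulin binds its receptor, which phosphorylates IRS1 and IRS2. These dock phosphatidylinositol 3-kinase and so activate the kinase AKT. AKT phosphorylates FOXO proteins, which then leave the nucleus. In the fasted liver, where insulin is low, nuclear FOXO1 raises genes of glucose output as well as IRS2 and INSR, and PPARGC1A and PDK4 are known for rising in the same state. An array measures messenger RNA and not the phosphorylation or location of these proteins, and in bulk RNA fewer cells with a transcript cannot be told apart from less of it per cell.

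The samples had medians of 7.02 to 7.06 log2 units. T3 replicates 1 and 2 had a wider spread of values over the array, with interquartile ranges of 2.99 and 2.97 log2 units, against 2.83 to 2.88 in the other 7 samples. Of the hepatocyte marker list 9 of 10 genes were measured, with ALB, the gene of albumin, averaging 14.47 log2 units with GC-1, 14.45 with T3 and 14.39 with vehicle. TM4SF4 was the one marker of that list below the array medians. Summed over those 9 genes, the log2 levels were 115.28 to 115.73 per sample with GC-1, 115.35 to 115.91 with T3 and 114.16 to 114.31 with vehicle, so both ligand groups lay above vehicle; its part in the results below was not tested. The 12 measured markers of other cell types summed to 87.60 to 88.71 with GC-1, 87.10 to 88.72 with T3 and 87.62 to 88.60 with vehicle. Of them 7 with GC-1, 8 with T3 and 7 with vehicle lay below the array medians, and EPCAM, an epithelial marker, was the highest. Of the hepatocyte markers 1 passed with GC-1, the fibrinogen gene FGB (0.65), and 2 with T3, FGB (0.70) and APOB (0.21). Of the other markers 1 passed with each ligand, KRT19, which fell by 0.28 with GC-1 and by 0.25 with T3. Over all genes, by their brightest probe set, 3.26% passed with GC-1 and 6.22% with T3.

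FOXO1 was the member around which the set was built, and both of its probe sets were higher with either ligand. On the brighter one (202724_s_at) the GC-1 samples read 8.18, 8.15 and 8.21 log2 units, the T3 samples 8.29, 8.33 and 8.25, and the vehicle samples 7.97, 7.81 and 7.85. All 6 ligand samples lay above all 3 vehicle samples, and the T3 samples lay above the GC-1 samples. The difference from vehicle was 0.31 ± 0.06 (SE) log2 units with GC-1, a 1.24-fold increase, and 0.41 ± 0.06 with T3, a 1.33-fold increase. On the array, 1.27% of probe sets had a larger GC-1 difference and 1.14% a larger T3 difference. In the whole-array fit, where the threshold was an adjusted p under 0.05 in limma over all probe sets, this probe set was among those called with each ligand. With GC-1 it was not called without vehicle replicate 2 or 3, or GC-1 replicate 1 or 3, where the difference was 0.27 to 0.30.

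The dimmer FOXO1 probe set (202723_s_at) read 7.88, 7.74 and 7.70 with GC-1, 7.86, 7.87 and 7.83 with T3 and 7.44, 7.60 and 7.67 with vehicle. Here too all ligand samples lay above all vehicle samples, but the vehicle and GC-1 samples spread more widely. The differences were 0.20 ± 0.07 with GC-1, which missed the threshold, and 0.28 ± 0.07 with T3, which passed it. The T3 call was lost without vehicle replicate 1 or 2, any of the 3 T3 replicates or GC-1 replicate 2, at differences of 0.21 to 0.30. It was also lost with quantile normalization, the interquartile range as a covariate, a replicate block and 2 groups per fit. Without T3 replicates 1 and 2 together, which left 1 T3 sample, the T3 difference was 0.26. Across the 9 samples the 2 FOXO1 probe sets had a Pearson correlation of 0.75, given as a description.

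FOXO4, a relative of FOXO1 that AKT also restrains, read 6.55, 6.59 and 6.54 with GC-1, 6.72, 6.48 and 6.80 with T3 and 6.39, 6.48 and 6.53 with vehicle. T3 replicate 2 lay among the vehicle samples, and the GC-1 samples lay just above them. Neither the GC-1 difference of 0.10 ± 0.08 nor the T3 difference of 0.20 ± 0.08 passed. Without T3 replicate 2, or without T3 replicates 1 and 2 together, the T3 difference passed; in the second case it was 0.34 and rested on 1 T3 sample assumed to vary like the other groups. FOXO3, another member of the family, differed from vehicle by -0.09 with GC-1 (limma adjusted p = 0.408) and 0.08 with T3 (limma adjusted p = 0.420).

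**Figure D1:**
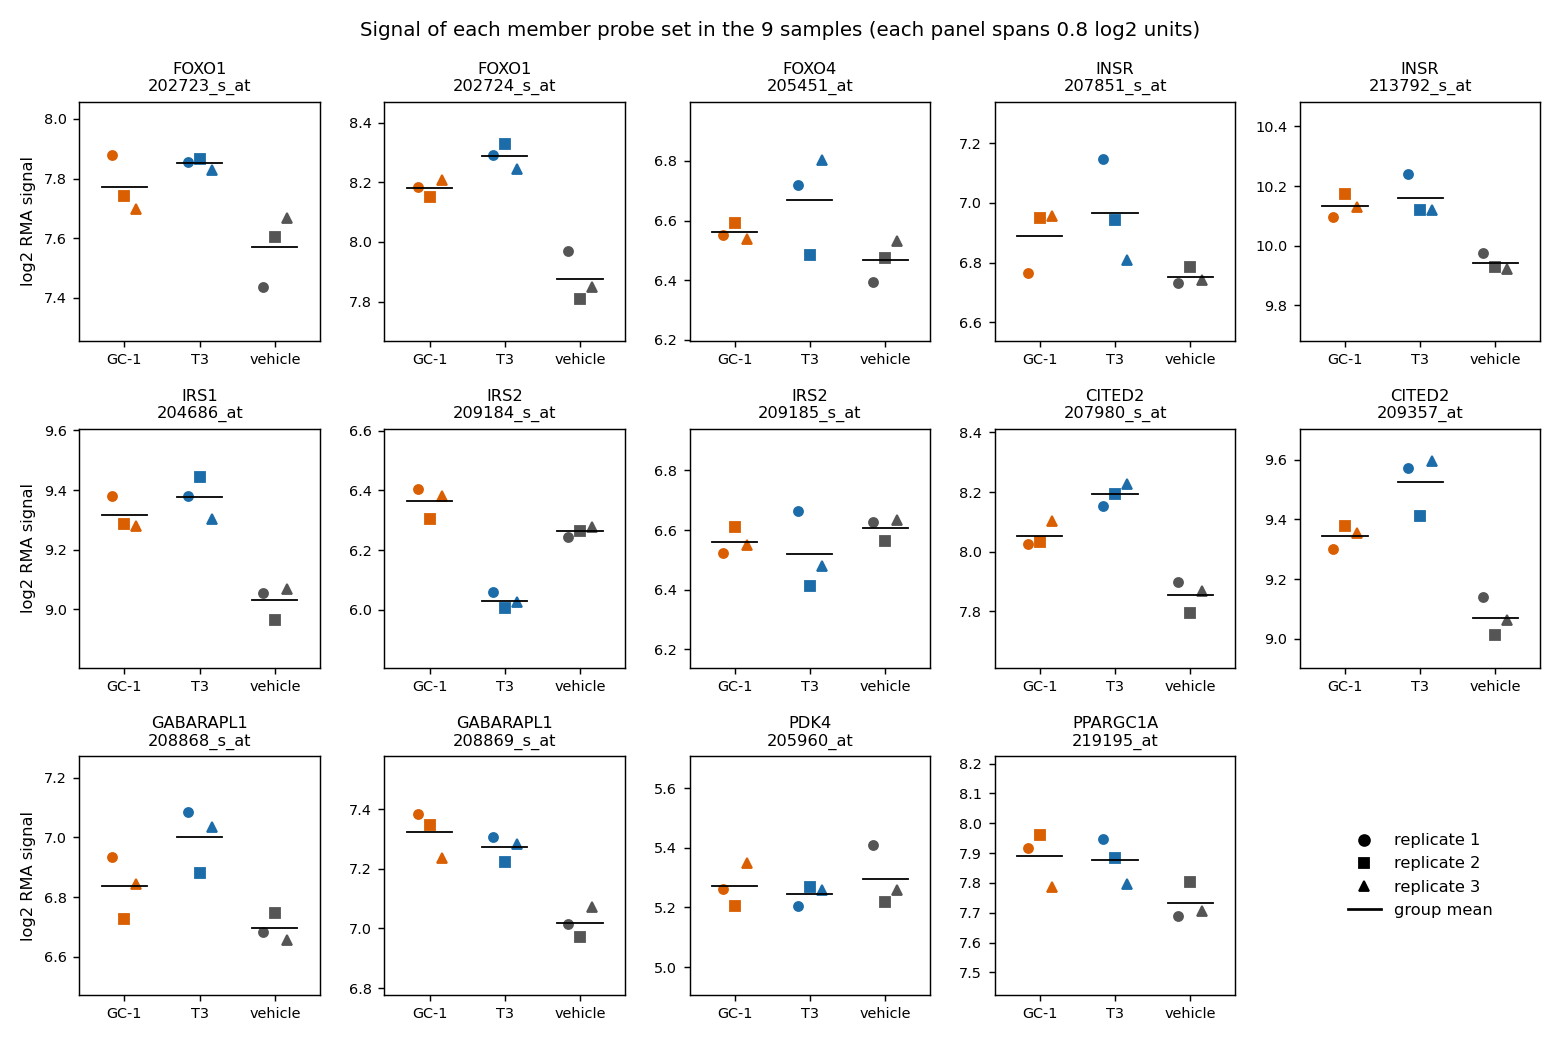
Log2 RMA signal (vertical axes) of the 14 member probe sets in GC-1, T3 and vehicle samples, with 1 marker per sample shaped by replicate number and a line at each group mean; every panel spans the same range. FOXO1, IRS1, CITED2, INSR 213792_s_at and GABARAPL1 208869_s_at show all 6 ligand samples above the 3 vehicle samples. PDK4 shows overlapping groups, and IRS2 209184_s_at shows GC-1 above and T3 below vehicle.

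The receptor gene INSR had smaller differences than FOXO1 202724_s_at. Its bright probe set (213792_s_at) read 10.10, 10.18 and 10.13 log2 units with GC-1, 10.24, 10.12 and 10.12 with T3 and 9.98, 9.93 and 9.92 with vehicle. No ligand sample overlapped a vehicle sample. The difference was 0.19 ± 0.05 with GC-1, not past the threshold, and 0.22 ± 0.05 with T3, past it. The T3 call was lost without any of the 3 vehicle replicates, T3 replicate 1 or GC-1 replicate 2 or 3 (differences 0.18 to 0.24), and with the interquartile range of the array as a covariate (0.16). A replicate block or 2 groups per fit lost it as well.

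The dimmer INSR probe set (207851_s_at) read 6.77, 6.95 and 6.96 with GC-1, 7.15, 6.94 and 6.81 with T3 and 6.73, 6.79 and 6.74 with vehicle. T3 replicate 1 stood highest, and GC-1 replicate 1 fell among the vehicle samples. Differences were 0.14 ± 0.08 with GC-1 and 0.21 ± 0.08 with T3, and neither passed. The T3 value was 0.06 without T3 replicates 1 and 2, the samples with the wider interquartile range, and 0.01 with that range as a covariate. The 2 INSR probe sets had a Pearson correlation of 0.83 over the 9 samples.

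IRS1, a docking protein of the receptor, read 9.38, 9.29 and 9.28 with GC-1, 9.38, 9.44 and 9.30 with T3 and 9.06, 8.97 and 9.07 with vehicle. The ligand groups overlapped each other and lay clear of vehicle. The GC-1 difference of 0.29 ± 0.06 (1.22-fold) and the T3 difference of 0.35 ± 0.06 (1.27-fold) both passed. The T3 call held without each of the 9 samples in turn, but not without T3 replicates 1 and 2 together (0.27). The GC-1 call was lost without any one of the vehicle or GC-1 samples, at differences of 0.25 to 0.31, and with a replicate block.

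IRS2, the docking protein that FOXO1 raises in the fasted liver, was measured by a pair of probe sets. Its probe set 209184_s_at read 6.41, 6.31 and 6.38 with GC-1, 6.06, 6.01 and 6.03 with T3 and 6.25, 6.26 and 6.28 with vehicle. All GC-1 samples lay above and all T3 samples below the vehicle samples, an arrangement shared by 0.167% of all probe sets. The GC-1 difference was 0.10 ± 0.05 and did not pass, while the T3 difference was -0.23 ± 0.05 and did. The T3 call was lost without any 1 of the vehicle samples or without T3 replicate 2, at -0.24 to -0.22. The eBayes options trend and robust, or the interquartile range as a covariate, lost it as well. The other IRS2 probe set (209185_s_at) read 6.52, 6.61 and 6.55 with GC-1, 6.67, 6.41 and 6.48 with T3 and 6.63, 6.56 and 6.63 with vehicle, so the 3 groups overlapped. Its differences were -0.05 ± 0.07 with GC-1 and -0.09 ± 0.07 with T3. The 2 IRS2 probe sets correlated at 0.33 over the 9 samples, the lowest of the 5 genes with a pair. Both were dim, brighter than 33.7% and 41.1% of the probe sets on the array.

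CITED2, a coregulator that binds the acetyltransferases p300 and CBP and that in mouse liver is known to aid PGC-1alpha, had the largest T3 increase of the set. Probe set 209357_at read 9.30, 9.38 and 9.35 log2 units with GC-1, 9.57, 9.41 and 9.60 with T3 and 9.14, 9.01 and 9.06 with vehicle. The 3 groups did not overlap, with T3 highest and vehicle lowest. The GC-1 difference was 0.27 ± 0.06 (1.21-fold) and the T3 difference 0.45 ± 0.06 (1.37-fold), and both passed. Only 0.891% of probe sets had a larger T3 difference. The GC-1 call was lost without any vehicle sample, any GC-1 sample or T3 replicate 1, at 0.24 to 0.31. The interquartile range as a covariate or a replicate block lost it as well.

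The second CITED2 probe set (207980_s_at) read 8.03, 8.03 and 8.10 with GC-1, 8.15, 8.19 and 8.23 with T3 and 7.90, 7.80 and 7.87 with vehicle. Again T3 lay highest and vehicle lowest without overlap. The differences were 0.20 ± 0.05 with GC-1, not past the threshold, and 0.34 ± 0.05 with T3, past it. The T3 calls of both CITED2 probe sets held without each sample in turn, and the 2 probe sets correlated at 0.95 over the 9 samples, the highest among the genes with a pair.

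PPARGC1A encodes the coactivator PGC-1alpha, which drives glucose output and mitochondrial genes in the fasted liver. It read 7.92, 7.96 and 7.79 with GC-1, 7.95, 7.88 and 7.80 with T3 and 7.69, 7.80 and 7.71 with vehicle. Replicate 3 of each ligand and replicate 2 of vehicle met at about the same level, so the groups overlapped. The differences of 0.16 ± 0.06 with GC-1 and 0.14 ± 0.06 with T3 did not pass, and the T3 value was 0.07 without T3 replicates 1 and 2.

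GABARAPL1, an autophagy protein of the Atg8 family and a known FOXO target in muscle, had a higher mean with either ligand on both probe sets. Probe set 208869_s_at read 7.38, 7.35 and 7.24 with GC-1, 7.31, 7.22 and 7.28 with T3 and 7.01, 6.97 and 7.07 with vehicle. The ligand groups overlapped each other and lay above vehicle. The differences of 0.30 ± 0.06 with GC-1 (1.23-fold) and 0.25 ± 0.06 with T3 (1.19-fold) passed. The GC-1 call was lost without vehicle replicate 1 or 2 or GC-1 replicate 1 or 2 (0.27 to 0.30), and the T3 call without vehicle replicate 1 or 2 or T3 replicate 1 (0.23 to 0.25). With the interquartile range as a covariate or a replicate block the T3 call was lost as well.

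On probe set 208868_s_at GABARAPL1 read 6.94, 6.73 and 6.85 with GC-1, 7.09, 6.88 and 7.04 with T3 and 6.68, 6.75 and 6.66 with vehicle. The T3 samples lay above vehicle, and GC-1 replicate 2 lay among the vehicle samples. The GC-1 difference of 0.14 ± 0.07 did not pass and the T3 difference of 0.30 ± 0.07 did. That T3 call was lost without any vehicle replicate or without T3 replicate 1 or 3, at 0.26 to 0.33, and with the interquartile range as a covariate. Both are of the type of probe set that can bind more than 1 transcript. Signal from the near-identical GABARAPL3 cannot be told apart from that of GABARAPL1. All probe sets of FOXO1, INSR and IRS2, and CITED2 207980_s_at, are of the same type.

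PDK4, the kinase that shuts pyruvate dehydrogenase in fasting, was measured by 1 probe set. It read 5.26, 5.20 and 5.35 with GC-1, 5.20, 5.27 and 5.26 with T3 and 5.41, 5.22 and 5.26 with vehicle. The 3 groups overlapped throughout, with differences of -0.02 ± 0.06 with GC-1 (95% interval -0.16 to 0.11) and -0.05 ± 0.06 with T3 (95% interval -0.19 to 0.09). Only 13.6% of all probe sets were dimmer.

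The sequence upstream of the members is shown for the windows that hold the insulin response element core CAAAACA, through which FOXO proteins are known to act. It was searched on both strands in the 250 bases before each gene's start in the RefSeq promoters (GRCh38.p14). The forkhead core GTAAACA and the thyroid hormone receptor core AGGTCA were searched in the same way. All 9 members matched, with 12 windows. CAAAACA stood in 2 of the 12, those of GABARAPL1 and IRS2, and in 4.30% of all 35116 windows. GTAAACA stood in 0 of the 12 and in 2.98% of all windows, and AGGTCA in 0 of the 12 and in 12.1% of all windows. The 2 windows follow 5′ to 3′ on the strand of the gene, with the match, read from the other strand as the reverse complement, in capitals. The GABARAPL1 window lies at chr12:10212627-10212876 on the plus strand and its match begins 160 bases before the start. The IRS2 window lies at chr13:109786584-109786833 on the minus strand and its match begins 40 bases before the start.
GABARAPL1: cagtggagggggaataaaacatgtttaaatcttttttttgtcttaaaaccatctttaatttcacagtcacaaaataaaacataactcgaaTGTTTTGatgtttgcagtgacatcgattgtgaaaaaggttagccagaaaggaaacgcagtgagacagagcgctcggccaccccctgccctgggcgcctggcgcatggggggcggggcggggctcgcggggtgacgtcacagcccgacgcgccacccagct
IRS2: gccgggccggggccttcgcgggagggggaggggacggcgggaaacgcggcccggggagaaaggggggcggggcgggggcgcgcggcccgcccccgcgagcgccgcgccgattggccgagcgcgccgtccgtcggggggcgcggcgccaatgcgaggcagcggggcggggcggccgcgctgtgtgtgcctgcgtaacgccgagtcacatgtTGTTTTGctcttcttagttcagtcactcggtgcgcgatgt
The responses of the 2 genes were not tested against each other. A match of letters is a description of the window and not evidence of binding.

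Counted together, 4 of the 14 probe sets passed with GC-1, all higher, where 2.80% of all probe sets passed, 1.81% higher and 0.986% lower. With T3, 9 of the 14 passed, 8 higher and 1 lower, where 5.50% of all probe sets passed, 4.00% higher and 1.50% lower. By gene and its brightest probe set, 4 of 9 were higher with GC-1 and 5 of 9 with T3, where 2.10% and 4.51% of all genes were higher. By that probe set 0 were lower, where 1.16% of all genes were lower with GC-1 and 1.71% with T3. Counting any probe set added only IRS2 as lower with T3, and no share over all genes was taken in that unit. FOXO4, PDK4 and PPARGC1A passed with neither ligand. The GC-1 samples lay wholly above vehicle in 9 probe sets and wholly below in 0, and the T3 samples wholly above in 9 and wholly below in 1. Over the whole array 26.5% of probe sets did not overlap between GC-1 and vehicle, 10.8% above and 15.6% below, and 24.9% between T3 and vehicle, 12.5% above and 12.4% below. Since the members were chosen on these contrasts, nothing is read from these counts.

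The median difference over the 14 probe sets was 0.17 with GC-1 and 0.24 with T3, against -0.004 and -0.015 over all probe sets. The 2 contrasts share the same 3 vehicle samples. With GC-1 the count was 0 without vehicle replicate 2 or GC-1 replicate 1, and 1 without vehicle replicate 1 or 3 or GC-1 replicate 2 or 3. In those fits 274 to 292 probe sets of the array passed with GC-1, against 622 with all samples. With T3 the member count was 4 without vehicle replicate 1 or 2 and 5 without T3 replicate 1, where 661 to 779 of the array passed, against 1222. With the interquartile range as a covariate 4 member probe sets passed with T3, both of CITED2, IRS1 and the brighter one of FOXO1. There the array count rose to 2084.

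**Figure D2:**
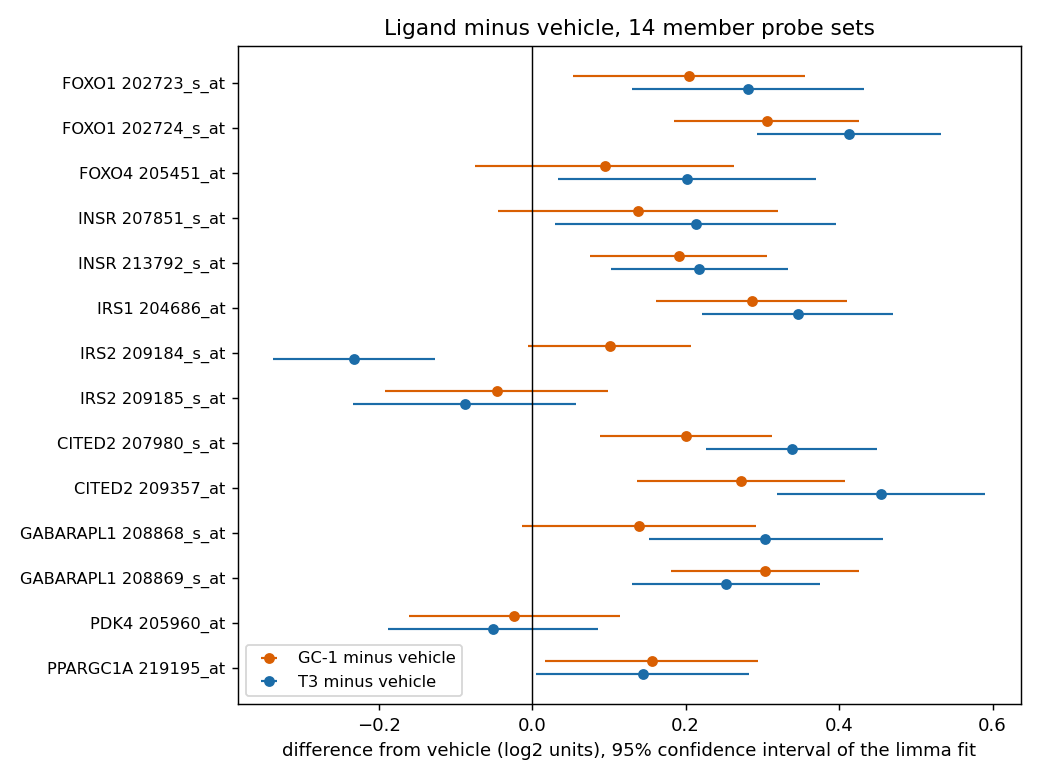
Difference from vehicle in log2 units (horizontal axis) for each of the 14 member probe sets, GC-1 above T3 in each row, with the 95% confidence interval of the limma fit over all 9 samples. Differences run from -0.05 to 0.31 with GC-1 and from -0.23 to 0.45 with T3, and the T3 point of IRS2 209184_s_at lies farthest to the left.

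GC-1 and T3 were then set against each other at the same dose and time. The members were chosen with earlier results of these data known, so the p-values of members in this contrast carry that limit too. Of the 14 member probe sets 0 passed in limma after adjustment, as did 0.00% of all probe sets, while 14.1% of all had an unadjusted p under 0.05. The eBayes options trend and robust called 22 probe sets of the array and none of the members. Among the 14 members 4 had an unadjusted p under 0.05, both probe sets of CITED2 and 1 each of IRS2 and GABARAPL1. IRS2 209184_s_at had the largest difference, with GC-1 higher by 0.33 ± 0.05 (95% interval 0.23 to 0.44, limma adjusted p = 0.143). Leaving out T3 replicate 3 brought it past the threshold (0.33, limma adjusted p = 0.0345), in a fit that called 338 probe sets of the array. Over all alternatives its adjusted p ranged from 0.0345 to 0.392. The other IRS2 probe set had a difference of 0.04 (95% interval -0.10 to 0.19).

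CITED2 was lower with GC-1 than with T3 by 0.18 ± 0.06 on 209357_at (95% interval -0.32 to -0.05, limma adjusted p = 0.257) and by 0.14 ± 0.05 on 207980_s_at (95% interval -0.25 to -0.03, limma adjusted p = 0.283). GABARAPL1 had a GC-1 minus T3 difference of -0.17 on 208868_s_at (95% interval -0.32 to -0.01) and of 0.05 on 208869_s_at (95% interval -0.07 to 0.17), so its probe sets did not point the same way. The brighter FOXO1 probe set had -0.11 (95% interval -0.23 to 0.01, limma adjusted p = 0.405) and IRS1 -0.06 (95% interval -0.18 to 0.06, limma adjusted p = 0.657). For PPARGC1A the interval ran from -0.13 to 0.15 and for PDK4 from -0.11 to 0.17. The GC-1 samples lay wholly below the T3 samples in 3 probe sets, both of CITED2 and FOXO1 202724_s_at, and wholly above in 1, IRS2 209184_s_at, where 18.0% of all probe sets did not overlap, 7.90% above and 10.1% below. These intervals bound the differences between the ligands and do not establish equal action.

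**Figure D3:**
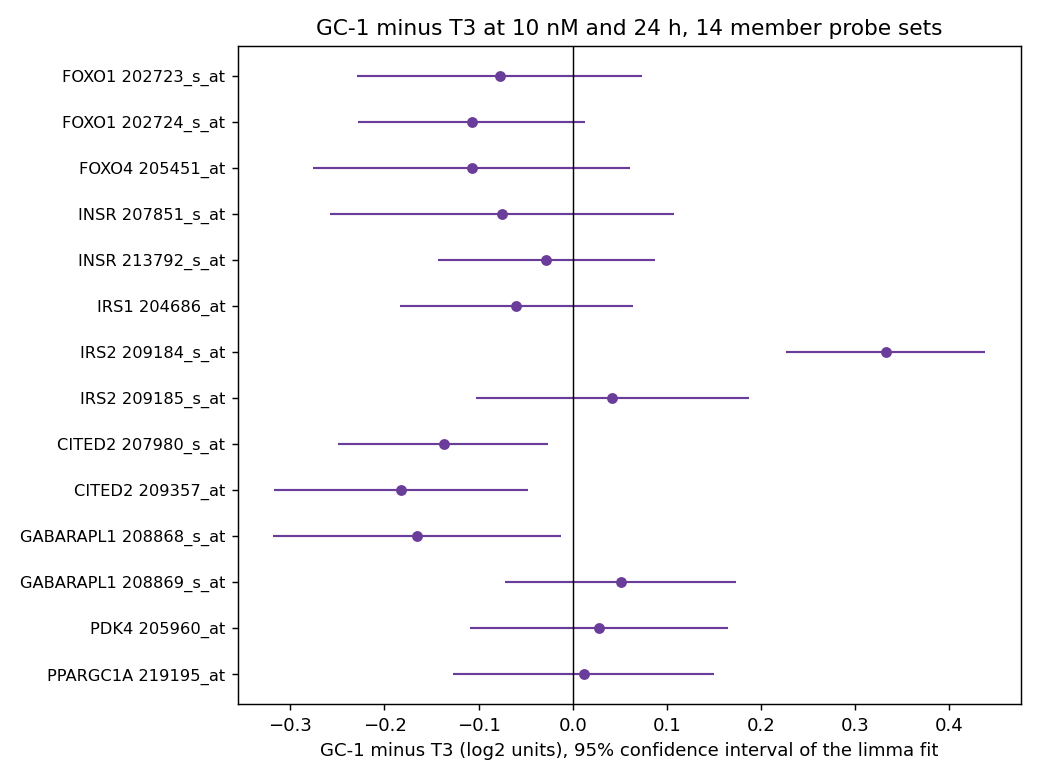
GC-1 minus T3 difference in log2 units (horizontal axis) for the 14 member probe sets, with the 95% confidence interval of the limma fit. The interval of IRS2 209184_s_at, 0.23 to 0.44, lies above zero, those of both CITED2 probe sets and GABARAPL1 208868_s_at lie below it, and the rest include it; none passed after adjustment over the array.

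Other genes of the pathway were taken by list. The lists were chosen with earlier results of these data known, so counts and p-values describe the fit and test no list. Of 24 measured genes of insulin and growth factor signalling 1 rose with GC-1 and 2 rose with T3, none fell, and the list medians were 0.01 and 0.01 on the log2 scale, against -0.005 and -0.017 over all genes. Among genes by their brightest probe set, 3.26% passed with GC-1, 2.10% higher and 1.16% lower, and 6.22% with T3, 4.51% higher and 1.71% lower. SHC1, an adaptor that links the receptor to the Ras pathway, rose by 0.25 with GC-1 (limma adjusted p = 0.0169) and 0.29 with T3 (limma adjusted p = 0.00378). PDPK1, the kinase that activates AKT, differed by 0.10 with GC-1 (limma adjusted p = 0.321) and rose by 0.28 with T3 (limma adjusted p = 0.00506). The inhibitory adaptor GRB14 had -0.25 and -0.14 with GC-1 and T3 and did not pass, nor did the regulatory subunit PIK3R1 at -0.18 and -0.17. The GC-1 count was 0 without vehicle replicate 1, 2 or 3 or GC-1 replicate 1 or 2, and the T3 count was 5 without T3 replicate 3.

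Among FOXO3 and 17 other measured regulators of FOXO proteins 1 gene passed with either ligand. It was SGK1, a kinase that phosphorylates FOXO proteins as AKT does, which rose by 1.13 ± 0.05 log2 units with GC-1 (limma adjusted p = 1.41e-06) and 1.13 ± 0.05 with T3 (limma adjusted p = 8.26e-07). Of all genes 3.26% passed with GC-1 and 6.22% with T3. The list medians were -0.08 with GC-1 and -0.004 with T3. The 14-3-3 proteins YWHAQ and YWHAZ, which hold phosphorylated FOXO in the cytoplasm, had differences of -0.11 and -0.09 with GC-1 and -0.10 and -0.19 with T3, and XPO1, the export receptor, -0.16 with each ligand; none of these passed.

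Of 26 other genes known as FOXO targets 4 rose with GC-1 and 8 with T3, where 2.10% and 4.51% of all genes were higher. None fell, and the medians were 0.09 and 0.16. As the list was chosen with earlier results known, nothing is read from these counts. G6PC1, PCK1, TNFSF10 and APOC3 were the 4 that rose with both. G6PC1, which releases glucose, had 1.96 with GC-1 and 2.43 with T3, and APOC3, an inhibitor of lipoprotein clearance that insulin lowers, had 0.28 (limma adjusted p = 0.0152) and 0.48 (limma adjusted p = 0.000235). The other 4 that rose with T3, named after their values were seen, were the mitophagy receptors BNIP3 (0.23) and BNIP3L (0.28), the growth factor receptor ERBB3 (0.25) and the MYC antagonist MXI1 (0.21). IGFBP1, the liver gene best known for repression by insulin and also named after its values were seen, differed by 0.24 with GC-1 (limma adjusted p = 0.0776) and 0.22 with T3 (limma adjusted p = 0.0716). The T3 count was 4 or 5 without vehicle replicate 1, 2 or 3, T3 replicate 1 or GC-1 replicate 2 or 3, and the GC-1 count was 7 without T3 replicate 3. In size, the called member differences above vehicle were 1.16-fold to 1.37-fold with T3, against 5.40-fold for G6PC1.

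Of 13 measured genes that insulin raises in liver 3 rose with GC-1 and 4 with T3, where 2.10% and 4.51% of all genes were higher. None fell, and the medians were 0.08 and 0.11. ANGPTL8, a hepatocyte protein that acts on lipoprotein lipase, rose by 1.36 with GC-1 and 1.67 with T3. MLXIPL, the carbohydrate-sensing factor ChREBP, rose by 0.37 (limma adjusted p = 0.0262) and 0.51 (limma adjusted p = 0.00248), PKLR, liver pyruvate kinase, by 0.29 (limma adjusted p = 0.0482) and 0.41 (limma adjusted p = 0.00448). PNPLA3, a lipid droplet enzyme, had 0.21 with GC-1, which did not pass, and 0.40 with T3, which did. The GC-1 count was 1 without vehicle replicate 1 or 2 or any one GC-1 replicate.

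The lists around GABARAPL1, PDK4, PPARGC1A and CITED2 gave 0 or 1 call each with GC-1 and 0 to 2 with T3, where 3.26% of all genes passed with GC-1 and 6.22% with T3, and no list was tested against that share. Of 22 measured autophagy genes WIPI1, a phosphoinositide-binding protein of the forming autophagosome, rose by 0.49 with GC-1 (limma adjusted p = 0.00197) and 0.39 with T3 (limma adjusted p = 0.00486), and no other gene passed. GABARAP and GABARAPL2, the close relatives of GABARAPL1, had 0.06 and 0.14 with GC-1 and 0.03 and 0.17 with T3. MAP1LC3B had 0.19 and 0.20 and RB1CC1 0.25 and 0.26 with GC-1 and T3, which did not pass either. Without T3 replicate 3 the autophagy counts were 3 with each ligand.

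Of 12 measured genes of pyruvate dehydrogenase and its kinases, 1 passed with each ligand. It was MPC1, a subunit of the mitochondrial pyruvate carrier, which rose by 0.32 with GC-1 (limma adjusted p = 0.00520) and 0.33 with T3 (limma adjusted p = 0.00259). The kinases PDK1, PDK2 and PDK3 had 0.12, 0.09 and 0.07 with GC-1 and 0.20, 0.08 and 0.03 with T3, none past the threshold. In the list of the PGC-1 family and partners 0 of 16 passed with GC-1 and 2 with T3, the nuclear receptor PPARD (0.29, limma adjusted p = 0.00945) and the mitochondrial RNA methyltransferase TFB1M (0.24, limma adjusted p = 0.0163). Without T3 replicate 3 the GC-1 count was 3, and without vehicle replicate 2 or 3 the T3 count was 1. Of 8 measured genes of the CITED family and partners HIF1A, which competes with CITED2 for p300, rose by 0.30 with GC-1 (limma adjusted p = 0.0236), had 0.19 with T3 (limma adjusted p = 0.0918), and no other gene passed. That GC-1 call was lost without any single vehicle or GC-1 sample. Of 10 housekeeping genes 0 passed with either ligand, with GAPDH at 0.08 and 0.10 with GC-1 and T3, and the eBayes options trend and robust called 2 with GC-1 and 3 with T3. No gene of any of these lists passed in GC-1 minus T3 in the fit of all 9 samples.

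**Figure D4:**
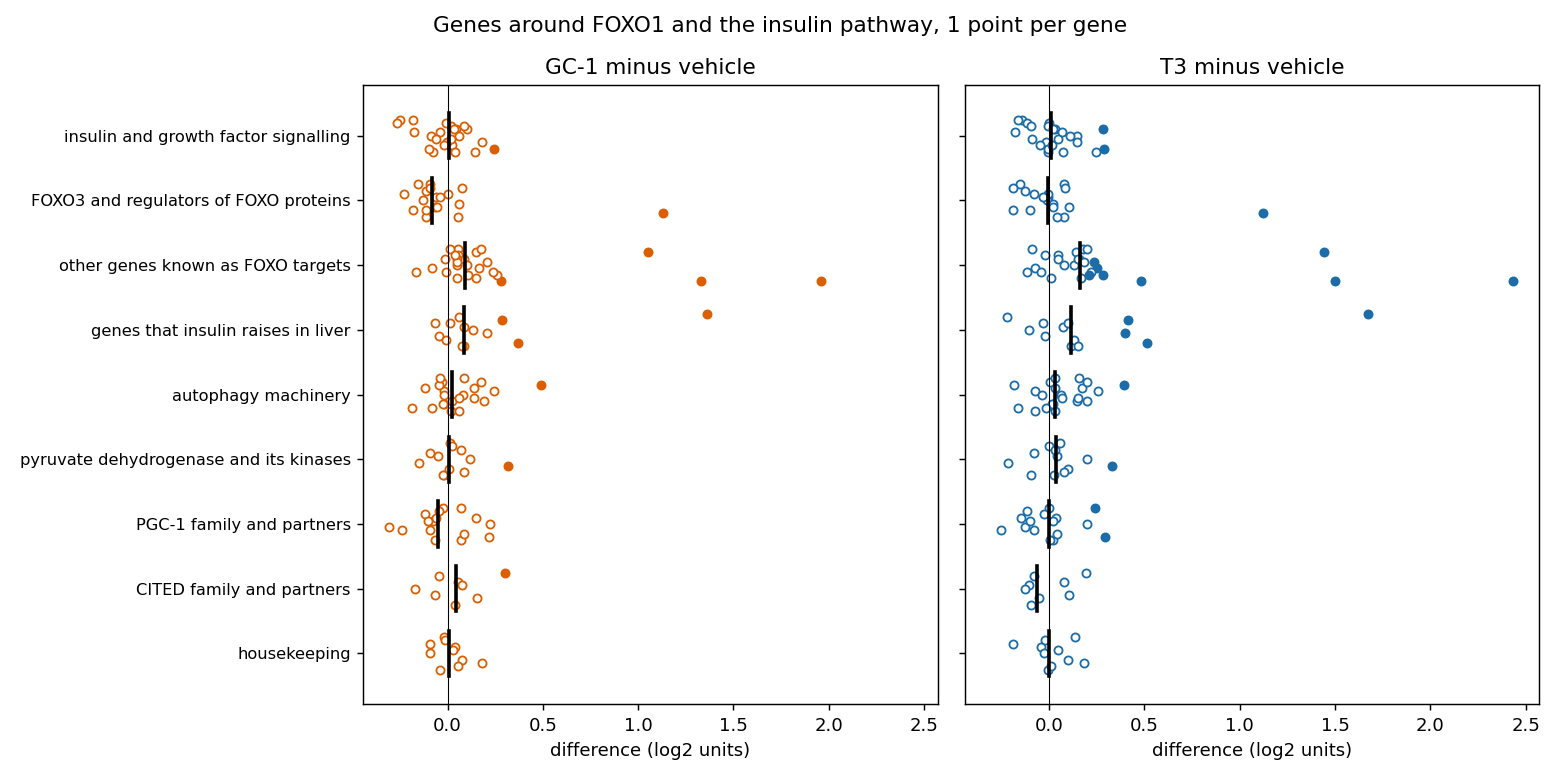
Difference from vehicle in log2 units (horizontal axes) of every measured gene of 9 lists, GC-1 on the left and T3 on the right, 1 point per gene by its brightest probe set, filled where the adjusted p was under 0.05, with a bar at the list median. The filled points of largest size are G6PC1, ANGPTL8, TNFSF10, SGK1 and PCK1, and most other points lie near zero.

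Likeness in pattern was measured as Pearson correlation with FOXO1 over the 9 samples, for 11962 other genes by their brightest probe set. It is a description, since the samples fall into 3 treated groups and many ligand-responsive genes share them. The 5 genes most like FOXO1 202724_s_at were CYP4F3, LAMC1, SLC30A10, RHOBTB1 and EFNA1, at correlations of 0.98. Their T3 differences ran from 0.31 in RHOBTB1 to 1.06 in CYP4F3, and their GC-1 differences from 0.21 to 0.85. The 5 most like FOXO1 202723_s_at were OSMR, ICAM1, GPX3, SERPINA5 and PCYOX1, at 0.96 to 0.97, and no gene was among the 5 of both probe sets.

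Among the members IRS1 came closest to FOXO1 202724_s_at, at a correlation of 0.96 and rank 35, followed by CITED2 at 0.92 (rank 195), INSR at 0.91 (rank 235) and GABARAPL1 at 0.82 (rank 569). PPARGC1A (0.63, rank 1318) and FOXO4 (0.52, rank 1821) were less alike. PDK4 had a correlation of -0.10 and IRS2 of -0.44. Against the other FOXO1 probe set IRS1 again ranked first among the members, at 0.86, and PDK4 and IRS2 were again below zero.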

How the data were processed

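The deposited values are log2 signals of 1 value per probe set and sample. RMA produced them, per the submitters' processing notes. Its version and the log base are not given in the sources used here; base 2, on which every fold rests, was inferred from the range of 3.15 to 14.5. No further normalization was applied. Detection calls and scan order were not analysed here. RMA compresses differences of dim probe sets.

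After 62 array controls were left out, 22215 probe sets remained. Of these, 19064 carried 1 symbol, 1043 carried several and 2108 carried no symbol; Entrez identifiers of 19052 matched the GRCh38.p14 gene table and 0 symbols were updated. Members are described probe set by probe set, and other genes by their brightest probe set.

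The 3 group means were estimated from the 9 samples together by lmFit and eBayes (limma 3.58.1, R 4.3.3), with two-sided tests. Benjamini-Hochberg adjustment ran over the whole array within each contrast, and 0.05 was the threshold. The fit was tested on simulated data. The members, the 11 gene lists and the alternatives were chosen with earlier results of these data known. At most 4 genes are named beside a list, those with the smallest p in the mean of the ligands against vehicle, besides close relatives of the members, genes completing a count and those stated as chosen later. Alternatives were quantile normalization, leaving out probe sets under 5 log2 units, eBayes with trend and robust options, array weights, the interquartile range as a covariate, a replicate block, 2 groups per fit, any probe set of a gene in the lists, and leaving out samples. No sample pair had identical values.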

Additional observations from a re-analysis of the deposited data

Results flagged for a closer look

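IRS2 on probe set 209184_s_at stood out because every GC-1 sample lay above and every T3 sample below all vehicle samples. The GC-1 minus T3 difference was 0.33 log2 units, and the test of that difference did not pass (limma adjusted p = 0.143). The other IRS2 probe set gave 0.04.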

How the results depend on the processing

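No member difference that passed changed sign under any alternative, but several alternatives cannot change the difference itself. Calls of members were lost under several alternatives, as given above. Leaving out T3 replicates 1 and 2 together left 1 T3 sample, so losses of calls in that fit are not listed for every member. The T3 count of member probe sets, 9 of 14, was 4 with the interquartile range as a covariate, where the array count rose from 1222 to 2084. With single samples left out the T3 member count was 4 to 9. The GC-1 count of 4 was 0 to 5 with single samples left out, and the GC-1 minus T3 count of 0 was 0 to 1. Leaving out a sample also takes away residual degrees of freedom. Same-numbered samples of different groups had deviations correlating at -0.262 to 0.075, and no sample correlated best with one of its own number. Between differently numbered GC-1 and T3 samples the correlations ran from -0.298 to 0.288. These values do not show whether the samples were paired by design. With the replicate block the GC-1 count was 2 and the T3 count 6. Over the whole array the T3 count of 1222 ranged from 661 to 2084 and the GC-1 count of 622 from 274 to 1435, and the GC-1 minus T3 count of 0 was 22 with the trend and robust options and 338 without T3 replicate 3. Among member differences 22 values moved by at least the pooled replicate SD and 692 did not. Leaving out 1 sample could not move a value that far. The eBayes options, the replicate block and 2 groups per fit leave the difference itself unchanged, so this tally is no measure of stability. Among list counts 123 moved by over 1.5 times and 471 did not; FOXO targets gave 4 to 13 with T3 (8 as reported) and 3 to 8 with GC-1 (4 as reported). Where a cause is not named it was not tested. The number of arrays limits precision.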
